A study of Mus musculus with 120 samples.

Results

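The genes described here are 9 mouse genes used to read the pattern of the embryonic neural tube, chosen by name out of the 23154 genes of each deposited count table: Shh, Ptch1, Gli1, Nkx2-2, Olig2, Nkx6-1, Dbx1, Irx3 and Lmx1a. Polyadenylated RNA was sequenced from E14/TG2A mouse embryonic stem cells and from parts of ICR mouse embryos. Enh9E KO cells, in which an enhancer was deleted with CRISPR-Cas9, gave 3 libraries on day 8 of a neural differentiation (D8, labelled neural progenitors) and 3 before it (D0, undifferentiated cells). WT cells of the same line gave 2 libraries at D8 and 2 at D0. Where that enhancer lies and which gene it acts on are not stated in the labels, so the deletion itself was not checked. Nor do they state whether libraries of a group come from separate clones, cultures or embryos, so the p-values rest on the spread between libraries that may be technical repeats. Embryos gave 2 libraries for each of 9 groups, named as in the labels: ExE and Epi at 6.5 days post coitum (E6.5), ExE, P and A at E7.0, and ExE, AM, P and A at E7.5. The other 92 samples of the series are not analysed here.

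Sonic hedgehog is secreted by the notochord and then by the floor plate, the ventral midline of the neural tube. It binds the receptor Patched1, which frees Smoothened and turns on Gli transcription factors. Ptch1 and Gli1 are themselves transcribed in response, so their RNA is a common readout of the pathway. Along the neural tube, high signal favours Nkx2-2, lower signal Olig2 and Nkx6-1, while Dbx1 and Irx3 mark progenitors farther from the source and Lmx1a marks the roof plate, as well as the floor plate of the midbrain.

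Library totals were 5962176 to 13182032 counts in the cells and 5145033 to 17138732 counts in the embryos. Levels are given as CPM, counts per 1000000 on library totals scaled by TMM, and a gene is called changed at an adjusted p under 0.05 in edgeR's quasi-likelihood test over all genes tested. Summed CPM of 8 pluripotency genes was 221 to 425 in KO and 80.6 to 176 in WT at D8, against 7210 to 7383 in KO and 7172 to 7432 in WT at D0. Summed CPM of 9 pan-neural progenitor genes was 1099 to 1342 in KO and 1602 to 1872 in WT at D8, against 619 to 662 in KO and 711 to 803 in WT at D0. At D8 the 9 forebrain and midbrain genes summed to 328 to 423 CPM in KO and 440 to 780 CPM in WT, while the 12 hindbrain and spinal cord genes summed to 6.86 to 20.8 CPM in KO and 1.39 to 9.45 CPM in WT. In the embryos the 8 markers of extra-embryonic ectoderm summed to 390 to 841 CPM in libraries labelled ExE and to 46.1 to 256 CPM in the others.

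RefSeq promoter sequences of GRCm38.p6 were matched for 7 of the 9 genes: Ptch1, Nkx2-2, Olig2, Nkx6-1, Dbx1, Irx3 and Lmx1a. The G and C content of the 250 bases before the start was 52.8% to 78.4% in these 7, against a median of 52.4% over 32851 promoters. Ptch1 had the highest of the 7 and Dbx1 the lowest. The core of the Gli binding motif, GACCACC, was found on either strand in 1 of the 7, Olig2, and in 2.34% of all promoters. The longer Gli motif that begins with the same letters, GACCACCCA, was found in 0 of the 7 and in 0.225% of all promoters. The TATA box letters TATAAAA were found in Olig2 and Dbx1, and in 4.98% of all promoters. Olig2 and Dbx1 are shown because they hold these letters and because, over the 10 cell libraries, Dbx1 was the gene closest to Olig2. Each line is the 120 bases just before the annotated start, at chr16:91225430-91225549 on the plus strand for Olig2 and at chr7:49636836-49636955 on the minus strand for Dbx1, with the motifs in capitals.
Olig2: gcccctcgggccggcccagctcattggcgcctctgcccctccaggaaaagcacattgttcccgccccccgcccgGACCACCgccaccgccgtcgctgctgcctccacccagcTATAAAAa
Dbx1: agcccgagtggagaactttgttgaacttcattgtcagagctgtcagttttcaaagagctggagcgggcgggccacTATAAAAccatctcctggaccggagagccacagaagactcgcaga
In Olig2, GACCACC begins 46 bases before the start and TATAAAA 8 bases before it. In Dbx1, TATAAAA begins 45 bases before the start. A match of letters is a description and does not show that a factor binds there.

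At D8 all 9 genes were detected in all 5 libraries. In KO cells 7 of the 9 rose between D0 and D8, where 33.4% of the 14629 genes tested rose, and in WT cells 7 of the 9 rose, where 27.9% did. They were Shh, Nkx2-2, Olig2, Nkx6-1, Dbx1, Irx3 and Lmx1a in both genotypes. Ptch1 and Gli1, already measured at D0, passed the test in neither. Of the 9, 5 (Shh, Nkx2-2, Olig2, Nkx6-1 and Dbx1) had under 10 counts in every D0 library and entered the test through D8 alone. Lmx1a, with 11 counts in KO D0 replicate 1 and under 10 in the other D0 libraries, also entered through D8. The count of genes that rose is therefore a description. So are the D8 over D0 calls and p-values of the genes that entered through D8. DESeq2 called 7 of the 9 in each genotype as well.

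Shh, the ligand, had 21.6, 2.16 and 12.7 CPM in the KO libraries at D8 (replicates 1, 2 and 3), and 49.6 and 10.7 CPM in the WT libraries at D8. At D0 it had 0.446, 0.114 and 0.316 CPM in KO and 0.247 and 0.145 CPM in WT. The days did not overlap in either genotype, while the genotypes overlapped on both days. Between D8 and D0 in KO its log2 fold change was 5.35 ± 0.999 (SE), with an edgeR adjusted p of 0.000716. That p-value is a description, since Shh entered the test through D8 alone. In WT the D0 libraries held only 3 counts together, and the pooled ratio of D8 to D0 was 136-fold, with a 95% exact counting interval of 46.1 to 659.7. It was 53.6-fold without WT D8 replicate 1 and 248-fold without WT D8 replicate 2.

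Ptch1, the receptor, had 86.5, 5.13 and 24.7 CPM in KO at D8 and 116.0 and 44.6 CPM in WT at D8. At D0 it had 26.9, 23.9 and 23.7 CPM in KO and 29.9 and 37.7 CPM in WT. KO replicate 2 at D8 therefore lay below every D0 library, and both WT libraries at D8 lay above them. The log2 fold change between D8 and D0 was 0.64 ± 0.69 in KO (edgeR adjusted p = 0.428) and 1.25 ± 0.84 in WT (edgeR adjusted p = 0.225).

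Gli1, a transcription factor that is both effector and target of the pathway, had 49.4, 2.87 and 19.3 CPM in KO at D8 and 96.7 and 25.3 CPM in WT at D8. At D0 it had 6.39, 11.3 and 14.1 CPM in KO and 9.50 and 16.2 CPM in WT. Its order over the 5 D8 libraries was the same as that of Ptch1. The log2 fold change between D8 and D0 was 1.15 ± 0.75 in KO (edgeR adjusted p = 0.202) and 2.25 ± 0.93 in WT (edgeR adjusted p = 0.0585). In WT it passed the test with scaling by total counts (adjusted p = 0.0452), which moved the median of all genes to 0.25, and without WT D8 replicate 2 (adjusted p = 0.0297); over all alternatives its adjusted p ran from 0.0297 to 0.418.

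Nkx2-2, the factor of progenitors next to the floor plate, had 4.54, 1.23 and 2.92 CPM in KO at D8 and 4.43 and 2.03 CPM in WT at D8. At D0 all 5 libraries lay between 0.145 and 0.343 CPM. It was higher at D8 in KO by a log2 fold change of 3.47 ± 0.66 (edgeR adjusted p = 0.000798, a description as for Shh). In WT, with 3 counts at D0, the pooled ratio was 15.2-fold (95% exact counting interval 4.92 to 76.4).

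Olig2, which specifies motor neuron progenitors, had 30.6, 1.13 and 13.5 CPM in KO at D8 and 31.4 and 31.0 CPM in WT at D8. The WT libraries lay close together above all 3 KO libraries, which were spread widely. At D0 the KO libraries held 1 count together and the WT libraries none. The pooled ratio of D8 to D0 in KO was 420-fold (95% exact counting interval 75.1 to 16641), and in WT the level was at least 156-fold higher at D8, against a floor of 3 counts over the D0 libraries. The KO ratio rests on that 1 count and is not compared with the WT bound. It was 208-fold without KO D8 replicate 1 and 231-fold without KO D0 replicate 3, and without KO D0 replicate 2, which held the count, KO was at least 96.5-fold higher. The WT bound was 71.9-fold without WT D0 replicate 1 and 84.2-fold without WT D0 replicate 2.

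Nkx6-1, a factor of the ventral progenitor domains that include the motor neuron domain, had 8.76, 1.23 and 10.7 CPM in KO at D8 and 48.7 and 5.68 CPM in WT at D8. No library at D0 held a count. It was at least 64.7-fold higher at D8 in KO and at least 119-fold higher in WT, against the same floor of 3 counts. Of the 383 counts in WT at D8, 330 were in replicate 1, without which the WT bound was 28.4-fold, while without WT D8 replicate 2 it was 244-fold. Leaving out a WT D0 library gave 54.8-fold or 64.2-fold, and leaving out 1 KO library gave 35.6-fold to 91.5-fold. The call in KO was lost without KO D8 replicate 1 (edgeR adjusted p = 0.0964), and it was lost with no filter on low counts in KO (0.0951) and in WT (0.0919); with the compared groups alone in the fit the WT call was lost too (0.165).

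Dbx1, which marks a progenitor domain in the middle of the neural tube, had 63.6, 5.75 and 18.4 CPM in KO at D8 and 67.9 and 38.8 CPM in WT at D8. KO replicate 1 lay within the WT range and the other KO libraries below it. The D0 libraries held 1 count together in KO and 3 in WT. The pooled ratio of D8 to D0 was 813-fold in KO (95% exact counting interval 145 to 32138) and 256-fold in WT (87.1 to 1242), and these intervals overlap. The KO ratio rests on 1 count, in D0 replicate 1, without which KO was at least 206-fold higher; it was 342-fold without KO D8 replicate 1, 447-fold without KO D0 replicate 3 and 1139.6-fold without KO D8 replicate 2. Leaving out 1 library took the WT ratio to between 194-fold and 353-fold.

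Irx3, which is repressed by Shh signalling and marks progenitors dorsal to the motor neuron domain, had 12.5, 9.65 and 27.2 CPM in KO at D8 and 90.2 and 11.4 CPM in WT at D8. At D0 it lay between 0.743 and 1.5 CPM in all 5 libraries. It was higher at D8 by a log2 fold change of 3.79 ± 0.76 in KO (edgeR adjusted p = 0.00112) and 5.37 ± 0.96 in WT (edgeR adjusted p = 0.000608). With the compared groups alone in the fit the WT call was lost (adjusted p = 0.0841), the highest over its alternatives.

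Lmx1a, the roof plate factor, had 1.58, 2.87 and 2.92 CPM in KO at D8 and 5.757 and 5.997 CPM in WT at D8. At D0 it had 1.63, 0.114 and 0.237 CPM in KO and 0.987 and 0.289 CPM in WT, so that KO D0 replicate 1 lay above KO D8 replicate 1. It was higher at D8 by a log2 fold change of 2.05 ± 0.72 in KO (edgeR adjusted p = 0.0268) and 3.14 ± 0.87 in WT (edgeR adjusted p = 0.00905). Both p-values are a description, since Lmx1a entered the test through D8. The KO call was lost on leaving out KO D0 replicate 2, KO D0 replicate 3, KO D8 replicate 2 or KO D8 replicate 3 (adjusted p from 0.0547 to 0.117), and the WT call without WT D0 replicate 2 (0.0729).

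**Figure D1:**
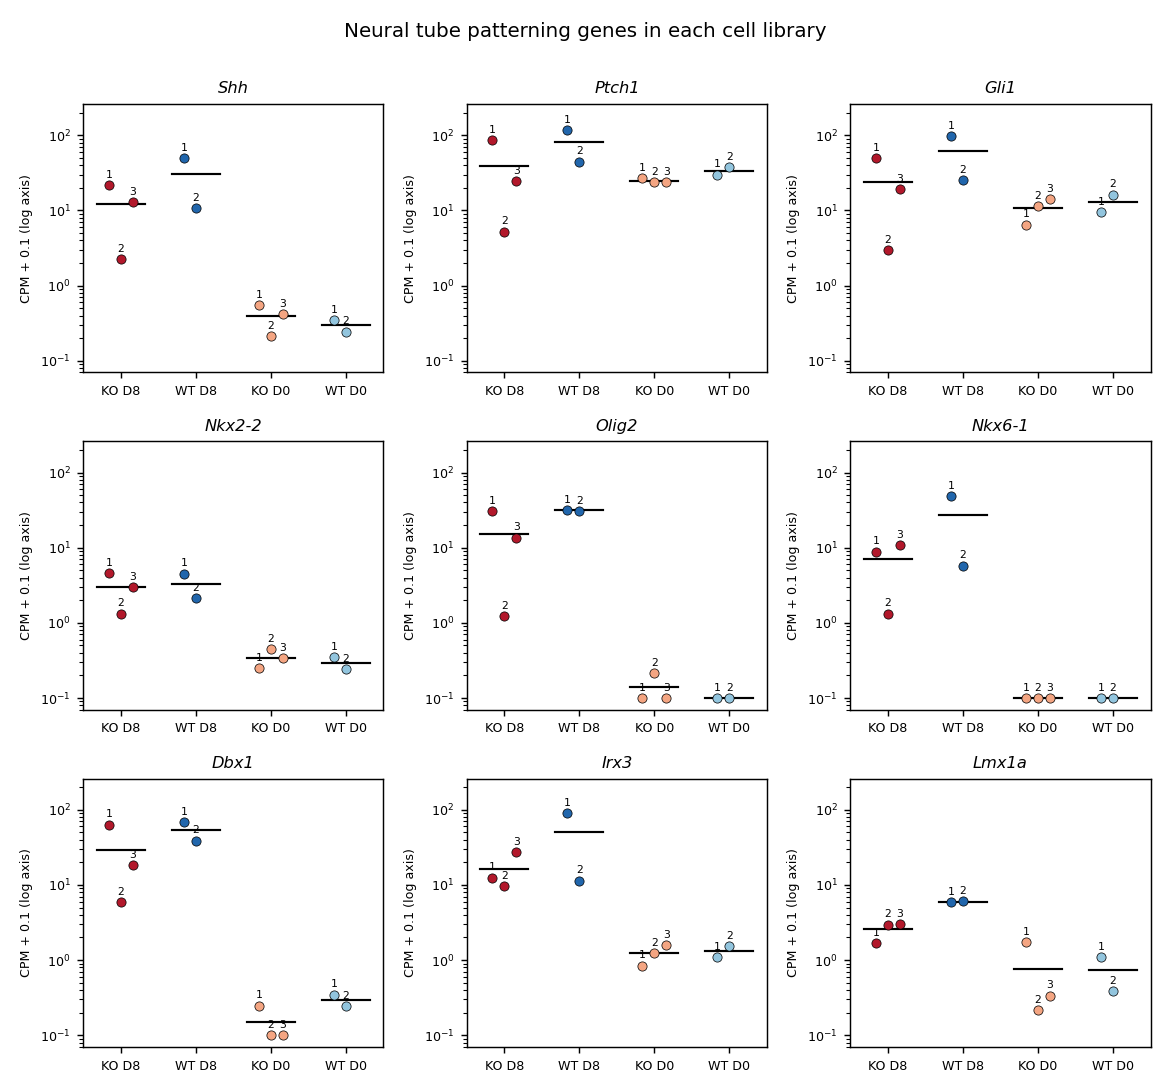
Level of each of the 9 genes in each cell library, as CPM plus 0.1 on a log axis; points are libraries numbered by replicate, bars the group means, with 3 KO and 2 WT libraries on each day. KO D8 replicate 2 was the lowest of the 5 D8 libraries for 8 of the 9 genes, and Lmx1a was the exception.

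Between D8 KO and D8 WT cells 0 of the 9 genes passed the test, where 20.8% of all genes tested did (3039 of 14629). Irx3 alone had an unadjusted p under 0.05, and DESeq2 also called 0 of the 9. All 9 fold changes were negative, with a median of -1.25 on the log2 scale against 0.02 over all genes tested. WT D8 replicate 1 held the highest value of 7 of the 9 genes, and KO D8 replicate 2 the lowest of 8. The libraries of the genotypes did not overlap for 2 of the 9, Olig2 and Lmx1a, where they did not for 47.5% of all genes tested. In bulk RNA, fewer cells of a type and less RNA per cell cannot be told apart.

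The sizes of these differences and their errors, D8 KO over D8 WT, were as follows on the log2 scale. Along the pathway, Shh was at -1.30 ± 0.72 (SE; edgeR adjusted p = 0.211), Ptch1 at -1.05 ± 0.74 (0.328) and Gli1 at -1.35 ± 0.79 (0.237). Among the ventral factors, Nkx2-2 was at -0.14 ± 0.57 (edgeR adjusted p = 0.880), Olig2 at -1.05 ± 0.78 (0.357) and Nkx6-1 at -1.97 ± 0.91 (0.157). Farther from the source, Dbx1 was at -0.86 ± 0.66 (edgeR adjusted p = 0.367), Irx3 at -1.62 ± 0.64 (0.0931) and Lmx1a at -1.25 ± 0.66 (0.190). Nkx6-1 had the most negative value and Nkx2-2 the value nearest to 0; the difference between these genes was not tested.

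Without WT D8 replicate 1, 4 of the 9 values turned positive: Shh 0.095, Nkx2-2 0.41, Nkx6-1 0.19 and Irx3 0.44. Without KO D8 replicate 2, Nkx2-2 turned positive as well, at 0.17. Without KO D8 replicate 1, Ptch1 (-2.42, edgeR adjusted p = 0.0367) and Dbx1 (-2.13, adjusted p = 0.00522) passed the test, and without WT D8 replicate 2 Irx3 did (-2.51, adjusted p = 0.0102). Over all their alternatives the adjusted p ran from 0.0367 to 0.871 for Ptch1 and from 0.0102 to 0.649 for Irx3. With the replicate number as a block in the fit, Nkx6-1 (-2.36, edgeR adjusted p = 0.0108) and Shh (-1.63, adjusted p = 0.0130) passed the test.

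**Figure D2:**
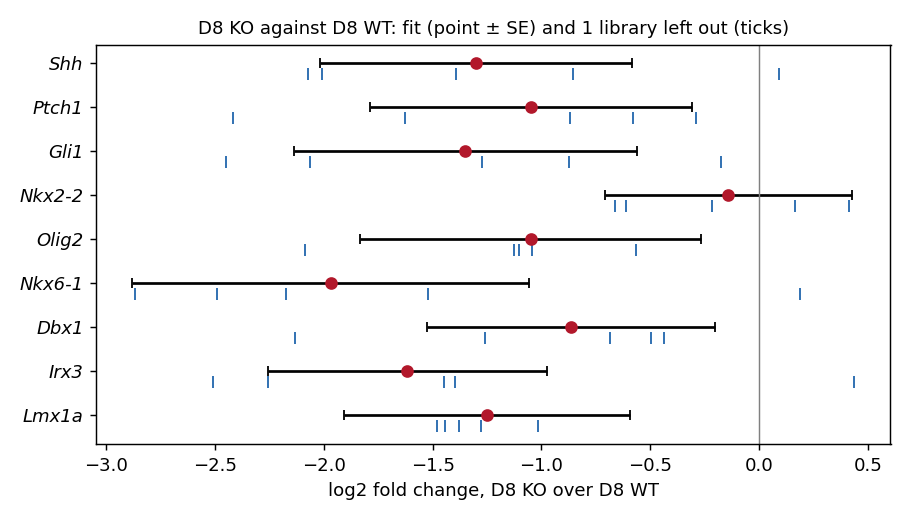
Log2 fold change of each gene between D8 KO and D8 WT cells; points with bars are the fit with its standard error (3 KO and 2 WT libraries), and ticks are the values with 1 library left out. The tick to the right of 0 for Shh, Nkx6-1 and Irx3 is the fit without WT D8 replicate 1.

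Before differentiation 0 of the 9 genes differed between D0 KO and D0 WT cells, where 0.273% of all genes did. No unadjusted p was under 0.05, and DESeq2 called 0 of the 9. Over all genes the share called depended on the fit. Many more genes were called with the D0 groups alone or with DESeq2, as the closing section gives. As for 44.3% of all genes tested, the libraries of the genotypes did not overlap for Ptch1, with 23.7 to 26.9 CPM in KO and 29.9 to 37.7 CPM in WT, at a log2 fold change of -0.45 ± 0.77. The change from D0 to D8 differed between KO and WT for 0 of the 9 genes, where it did for 5.76% of all genes; no unadjusted p was under 0.05 and DESeq2 called 0.

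Of 13 genes of Hedgehog reception and transduction outside the 9 genes, 3 were lower in D8 KO cells, 0 higher and 10 did not pass. Counted in either direction, the share called was close to the 20.8% of all genes, so that count does not set this list apart. By direction, all 3 calls were lower, where 8.24% of all genes tested were lower and 12.5% higher. Whether the list leans to lower values more than all genes was not tested. The list had a median log2 fold change of -0.56 against 0.02 over all genes tested. Cdon, a coreceptor for Shh, had 5.38, 5.03 and 5.65 CPM in KO at D8 and 12.4 and 13.8 CPM in WT at D8, at a log2 fold change of -1.29 ± 0.21 (edgeR adjusted p = 0.00318). Boc, a related coreceptor, had 11.1, 8.52 and 15.6 CPM in KO and 24.2 and 31.9 CPM in WT at D8, at -1.26 ± 0.27 (adjusted p = 0.00956). Gli2, the main activator of the Gli family, had 23.0, 6.06 and 13.005 CPM in KO and 61.7 and 59.3 CPM in WT at D8, at -2.11 ± 0.36 (adjusted p = 0.00353). The groups did not overlap for any of these 3 genes.

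Cdon and Boc also differed in their change from D0 to D8, with a KO minus WT log2 difference of -1.56 ± 0.30 for Cdon (edgeR adjusted p = 0.0223) and -1.95 ± 0.42 for Boc (adjusted p = 0.0279). Leaving out any of KO D0 replicates 2 and 3, both WT D0 libraries and both WT D8 libraries in turn ended both of these calls (adjusted p from 0.0518 to 0.128). Gli2 had 97.9, 98.3 and 115.5 CPM in KO at D0 and 181 and 203.5 CPM in WT at D0, which did not overlap but did not pass the test (log2 fold change -0.89 ± 0.34, adjusted p = 0.266). At D8 the call for Boc was lost without WT D8 replicate 2 (0.0755) and with the compared groups alone in the fit (0.0570), while Cdon and Gli2 kept theirs under every alternative run. Smo, which carries the signal inward, was not called (-0.01 ± 0.27).

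Among 6 genes that make or release Hedgehog ligands, 1 was higher in D8 KO cells: Scube2, which helps release lipidated Shh, had 19.8, 17.8 and 24.8 CPM in KO and 5.61 and 5.14 CPM in WT at D8 (log2 fold change 1.95 ± 0.38, edgeR adjusted p = 0.00626). Without either WT D8 library it missed the threshold (0.0566 and 0.0534). Of 10 floor plate and notochord genes, 8 were tested, 2 were higher and 1 lower. Nog, a secreted BMP antagonist, was higher (2.42 ± 0.49, adjusted p = 0.00775), as was Foxa2, a floor plate factor that endoderm also expresses (1.38 ± 0.45, 0.0496), while Ntn1, the axon guidance cue netrin, was lower (-1.45 ± 0.44, 0.0395). The calls for Foxa2 and Ntn1 were lost under 6 and 3 alternatives other than leaving out a library; without WT D8 replicate 1, Ntn1 was at -0.25 and Nog missed the threshold (0.0803), and without WT D8 replicate 2 Foxa2 was at 0.73. Of 8 other ventral progenitor genes, 6 were tested and 0 passed; Nkx2-9 was at 0.04 ± 0.67 and Nkx6-2 at -0.88 ± 0.54.

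Of 14 ventral neuron genes, 9 were tested and 2 were lower in D8 KO cells. Sim1, a factor of ventral interneurons, had 4.96, 4.21 and 10.1 CPM in KO and 52.4 and 19.8 CPM in WT at D8 (log2 fold change -2.48 ± 0.45, edgeR adjusted p = 0.00453), and without WT D8 replicate 1 it was at -1.72 (0.0660). Tal1 was at -3.62 ± 1.11 (adjusted p = 0.0409), but 12.4 CPM in WT D8 replicate 1 stood against 0.750 CPM in WT D8 replicate 2, and without replicate 1 it was at -0.63 (0.794).

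Other cell types' genes moved with the genotype at D8, and their part in the members' values was not tested. All 8 young neuron genes were lower in KO, with summed levels of 220 to 456 CPM in KO and 1053 to 1562 CPM in WT; Dcx was at -2.60 ± 0.32 (edgeR adjusted p = 0.00119) and Map2 at -1.97 ± 0.23 (0.00111). Without WT D8 replicate 1, or with the compared groups alone in the fit, 5 of the 8 were called. Of 9 pan-neural progenitor genes, 3 were lower (Nes, Hes5 and Msi1) and 6 did not pass, among them Sox1 at 0.20 ± 0.39; without WT D8 replicate 1, 1 of the 9 was called. Of 9 genes of definitive endoderm and gut, 6 were higher in KO, with summed levels of 530 to 894 CPM in KO and 148 to 188 CPM in WT; Sox17 was at 3.04 ± 0.48 (adjusted p = 0.00270) and Gata4 at 2.84 ± 0.29 (0.000880). KO D8 replicate 2, lowest for 8 of the members, was neither the lowest nor the highest KO library for the summed young neuron, endoderm or pluripotency genes, and was the lowest of the 5 D8 libraries for the Hedgehog reception genes (340 CPM).

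**Figure D3:**
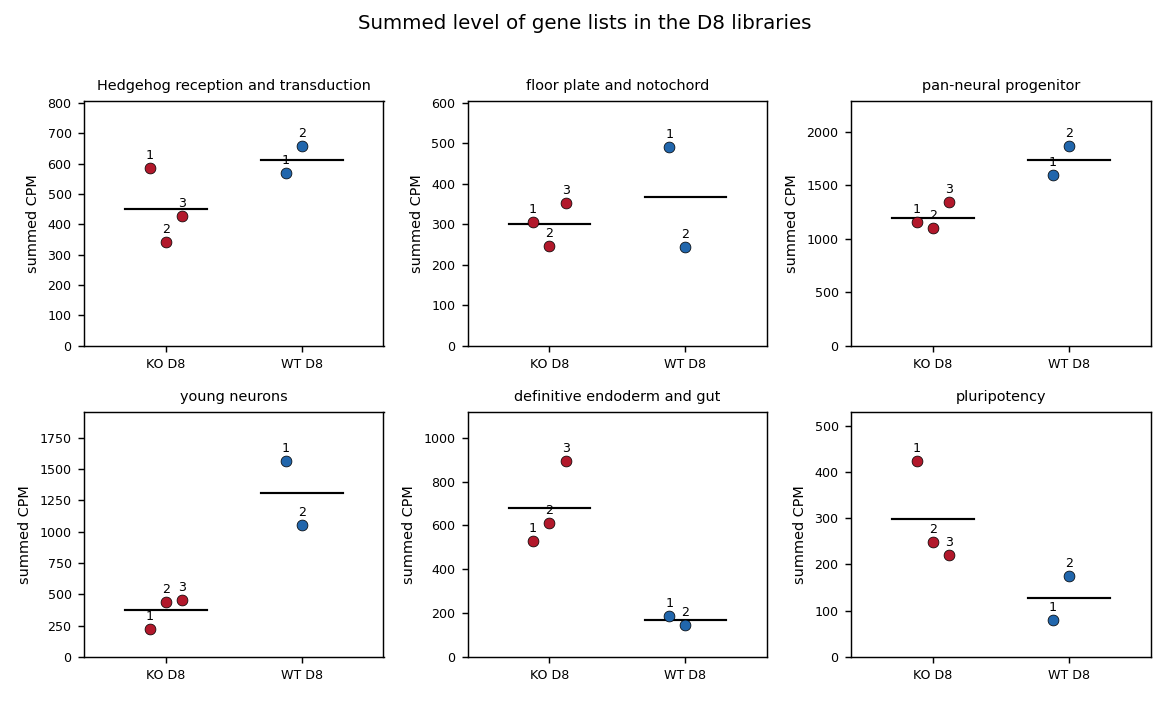
Summed CPM of 6 gene lists in each D8 library, with points numbered by replicate and bars at the group means (3 KO and 2 WT libraries); axes start at 0. KO and WT libraries do not overlap for the pan-neural progenitor, young neuron, endoderm and pluripotency lists, and overlap for the other 2.

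Fold changes were also set out by chromosome. The median log2 fold change of KO over WT was 0.47 at D0 and 0.50 at D8 on chromosome 14, 0.30 at D0 and 0.45 at D8 on chromosome 6, and 0.20 at D0 and 0.23 at D8 on chromosome 11, none of which holds a member. On the 8 chromosomes that hold members the medians ran from -0.15 to 0.10 at D0 and from -0.08 to 0.08 at D8. Shh (chromosome 5, 28456840 to 28467101 in GRCm38) and Nkx6-1 (chromosome 5, 101659184 to 101664711) share a chromosome. In the same build Lmx1a lies on chromosome 1 (167688230 to 167848741), Nkx2-2 on chromosome 2 (147176485 to 147195434), Dbx1 on chromosome 7 (49631499 to 49636835) and Irx3 on chromosome 8 (91798511 to 91801654). Gli1 lies on chromosome 10 (127329882 to 127341579), Ptch1 on chromosome 13 (63508328 to 63573460) and Olig2 on chromosome 16 (91225550 to 91228677).

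Over the 10 cell libraries, likeness was measured as the root mean square distance between genes in log2 CPM centred on each gene, among 12869 genes. It holds the shared rise from D0 to D8 and is given as a description. The gene closest to Shh was Nkx6-1, at 0.455 log2 units, and Shh was in turn the closest to Nkx6-1. Ptch1 was the closest to Gli1, at 0.515, while Plag1 was closest to Ptch1, at 0.436, with Gli1 next. Dbx1 was the closest to Olig2, at 0.697, and Foxb1 was closest to Dbx1, at 0.515. Irx3 had Irx5 as its closest gene, at 0.483. Nkx2-2 (Peg3, 0.274) and Lmx1a (Unc79, 0.460) had no member among their 3 closest genes, and neither did Dbx1 and Irx3.

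In the embryos 4 of the 9 genes were close to absent. Over the 18 libraries Olig2 had 1 count, Dbx1 2, Nkx2-2 3 and Nkx6-1 16, and all 4 fell below the filter on low counts. Nkx6-1 had 12 of its 16 counts in the E7.5 A libraries, with 0.455 and 0.256 CPM there, against 0.0685 and 0.0688 CPM in the AM libraries. The other 5 genes, Shh, Ptch1, Gli1, Irx3 and Lmx1a, were tested in 8 comparisons of regions and stages. Of these, Shh and Lmx1a had under 10 counts in every embryo library outside E7.5 AM and entered the test through AM alone. Test results and p-values of both genes in comparisons that include AM are therefore a description.

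Shh was measured above trace level in the E7.5 AM libraries, with 9.73 and 0.895 CPM (142 and 13 counts). It had 0.431 and 0 CPM in E7.5 P, 0.0506 and 0.256 CPM in E7.5 A and no counts in E7.5 ExE. The AM libraries did not overlap with the others at this stage, but lay far apart from each other. The log2 fold change was 5.14 ± 1.75 for AM over A (edgeR adjusted p = 0.217) and 4.42 ± 1.69 for AM over P (0.647). These p-values are a description, since Shh entered the test through AM alone. Without AM replicate 1 the AM over A value was 2.50, and over all its alternatives the adjusted p ran from 0.0230 to 0.946, the lowest being that with no filter on low counts. The summed level of the floor plate and notochord genes was 364 CPM in AM replicate 1 and 110.5 CPM in AM replicate 2, against 338 and 479 CPM in P and 24.7 and 119 CPM in A. That of the visceral endoderm genes was 1379 CPM in AM replicate 1 and 7324 CPM in AM replicate 2, and the part of either in the Shh value was not tested.

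Ptch1 was highest in the same libraries, with 8.16 and 7.43 CPM in AM, 3.28 and 3.67 CPM in P and 4.10 and 3.58 CPM in A at E7.5. Here the AM replicates lay close together and did not overlap with any other embryo library. The log2 fold change was 1.02 ± 0.59 for AM over A (edgeR adjusted p = 0.656) and 1.17 ± 0.60 for AM over P (0.821). Gli1 did not follow this order, with 1.23 and 1.24 CPM in AM, 1.12 and 1.31 CPM in P and 1.27 and 0.939 CPM in A.

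Lmx1a had 1.78 and 0.895 CPM in AM (26 and 13 counts), 0.431 and 0.131 CPM in P and 0.152 and 0.171 CPM in A. AM was again the highest group without overlap. The log2 fold change for AM over A was 2.98 ± 1.33 (edgeR adjusted p = 0.433). This p-value and the lack of overlap are a description, since Lmx1a entered the test through AM alone. Irx3 ran the other way, with 4.52 and 2.55 CPM in AM, 3.11 and 1.05 CPM in P and 10.3 and 11.3 CPM in A. A was the highest group without overlap, at a log2 fold change of -1.61 ± 0.85 for AM over A (adjusted p = 0.575) and -2.34 ± 0.89 for P over A (0.458). With no filter on low counts the P over A value passed the test (0.0439), the lowest over its alternatives, which reached 1.

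No member passed the test among the 3 embryonic parts at E7.5. The count was 0 for AM over A, where 1.57% of the 14403 genes tested passed, 0 for AM over P, where 0.111% did, and 0 for P over A, where 0.236% did. Unadjusted p was under 0.05 for 2, 1 and 1 of the 5 members in these comparisons, and DESeq2 called 0 in each. Of the 5 members tested, 4 did not overlap between AM and A, where 42.1% of all genes tested did not: Shh, Ptch1 and Lmx1a lay higher in both AM libraries and Irx3 lower, while Gli1 overlapped. Shh and Lmx1a entered the test through AM alone. The count without overlap and the counts of unadjusted p in the AM comparisons are therefore a description, not a result about the members. Of the 10 floor plate and notochord genes, 8 were tested and 2 were higher in AM than in A, where 1.15% of all genes were, Foxa2 (2.95 ± 0.56, edgeR adjusted p = 0.0106) and Foxa1 (4.44 ± 0.98, 0.0274), both also expressed in endoderm. Both calls were lost without AM replicate 1 (0.131 and 0.161), without A replicate 1 (0.209 and 0.309) and with the compared groups alone in the fit (0.166 and 0.164). At E7.0, 0 of the 5 differed between P and A, where 0.00694% of genes did; no unadjusted p was under 0.05 and DESeq2 called 0.

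**Figure D4:**
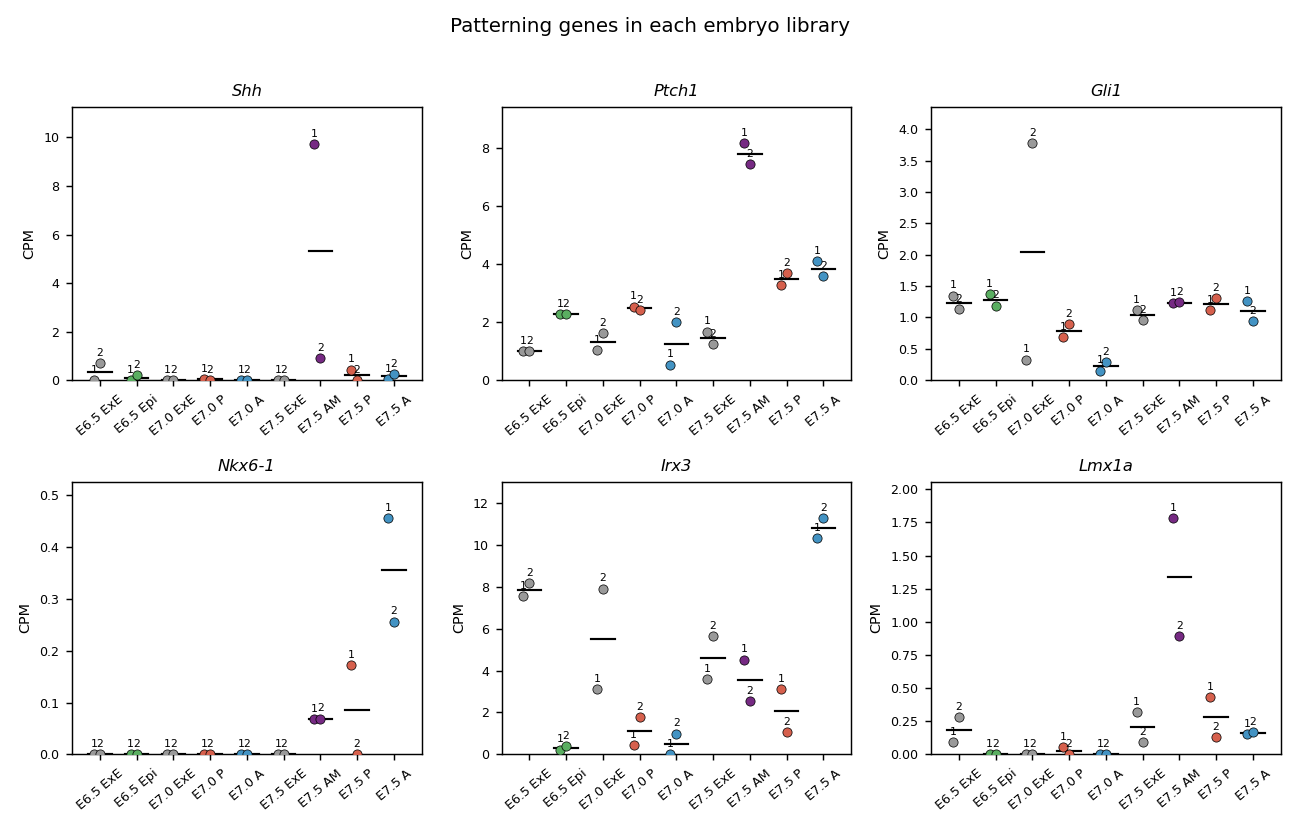
CPM of 6 of the genes in each embryo library, on axes from 0, with points numbered by replicate and bars at the group means (2 libraries a group); ExE, Epi, P, A and AM are the labels of the parts. Shh, Ptch1 and Lmx1a have their highest group at E7.5 AM, and Irx3 is high in E7.5 A and in E6.5 ExE.

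Irx3 also stood out in the libraries labelled ExE. At E6.5 it had 7.55 and 8.16 CPM in ExE and 0.228 and 0.396 CPM in Epi. It was higher in ExE by a log2 fold change of 4.59 ± 1.07 (edgeR adjusted p = 0.0122), the only member to rise there, where 3.69% of genes rose. At E7.0 it had 3.11 and 7.91 CPM in ExE, 0.460 and 1.78 CPM in P and 0 and 0.992 CPM in A, and was higher in ExE by 3.01 ± 0.78 (adjusted p = 0.0144), where 10.0% of genes rose. At E7.5 it had 3.58 and 5.63 CPM in ExE, which lay within the range of the 3 embryonic parts (0.09 ± 0.68, adjusted p = 0.945). The E6.5 call was lost without Epi replicate 1 (0.165), Epi replicate 2 (0.0869) or ExE replicate 1 (0.0526), and the E7.0 call without ExE replicate 2 (0.131), without P replicate 1 (0.0567) and with the compared groups alone in the fit (0.136).

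The ExE libraries also held high levels of visceral endoderm genes, 5330 to 16555 CPM summed against 13.01 to 7324 CPM in the other parts, and their part in the Irx3 values was not tested. Another gene of the same family, Irx2, had 23.5 and 29.3 CPM in E6.5 ExE and no count in E6.5 Epi, which is at least 162-fold higher against a floor of 3 counts over the Epi libraries (75.2-fold and 86.6-fold without either Epi library). At E7.5 Irx2 was higher in ExE than in the 3 embryonic parts (2.82 ± 0.46, edgeR adjusted p = 0.000633). Irx5, which like Irx3 lies on chromosome 8, was lower in ExE at E7.5 (-3.44 ± 0.89, adjusted p = 0.0121), with 0.318 and 1.05 CPM in ExE, 8.98 and 6.81 CPM in AM, 5.09 and 3.54 CPM in P and 13.8 and 10.1 CPM in A. The Irx5 call was lost without ExE replicate 1 (0.110) or ExE replicate 2 (0.0711).

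Ptch1 was lower in ExE at E7.5, with 1.67 and 1.24 CPM against 3.28 to 8.16 CPM in the embryonic parts (log2 fold change -1.68 ± 0.55, edgeR adjusted p = 0.0384), where 7.91% of genes fell. The call was lost on leaving out any 1 of the 8 libraries (adjusted p from 0.0587 to 0.302), with the value between -2.03 and -1.51. At E6.5 Ptch1 did not overlap either, with 0.988 and 0.985 CPM in ExE and 2.28 CPM in both Epi libraries, and did not pass (-1.20 ± 0.66, adjusted p = 0.290). Gli1 at E7.0 had 0.328 and 3.77 CPM in ExE, so its value of 2.23 ± 0.84 (adjusted p = 0.0729) rests on replicate 2, without which it was -0.31. With DESeq2 it passed (0.0454), and so it did without ExE replicate 1 (0.00341). Shh had no count in ExE at E7.0 or E7.5, and was at least 15.8-fold lower in E7.5 ExE than over the 3 embryonic parts, against a floor of 3 counts over the ExE libraries. Shh did not pass the test in that comparison. Of the 164 counts in those parts 142 were in AM replicate 1, without which the bound was 2.59-fold, and without either ExE library it was 7.18-fold or 8.62-fold.

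Of the 13 genes of Hedgehog reception and transduction, 12 were tested in the embryos. In E6.5 ExE 5 were lower than in Epi and 0 higher, where 5.24% of all genes were lower and 3.69% higher. Among the 5 were Gli3, a Gli factor that acts mainly as a repressor (-2.92 ± 0.59, edgeR adjusted p = 0.00489), Smo (-1.28 ± 0.30, 0.0122), Evc, a protein of the cilium base (-2.80 ± 0.68, 0.0161), and Gas1, a coreceptor (-2.92 ± 0.76, 0.0242). Leaving out 1 library took this count from 5 to between 0 and 2, and scaling by total counts to 2. In E7.0 ExE 3 were lower and 1 higher than in A and P, where 8.14% of all genes were lower and 10.0% higher. The higher one was Boc (2.87 ± 0.92, adjusted p = 0.0403), with 0.492 CPM in ExE replicate 1 and 9.16 CPM in ExE replicate 2. In E7.5 ExE Smo was lower than in the embryonic parts (-0.86 ± 0.25, edgeR adjusted p = 0.0220), and its call was lost without ExE replicate 2 (0.254).

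Across stages, the mean of the E7.5 A, AM and P groups was compared with E6.5 Epi. Of the 5 members tested 0 passed, where 2.63% of genes did, while 2 had an unadjusted p under 0.05 and DESeq2 called 1. That gene was Irx3, at a log2 fold change of 3.73 ± 0.98 (edgeR adjusted p = 0.0507), with 1.05 to 11.3 CPM at E7.5 and 0.228 and 0.396 CPM in Epi. It passed under 5 of the alternatives that keep all libraries and without E7.5 P replicate 2 (0.0397), and its adjusted p ran from 0.000134 to 0.441. Lmx1a had no count in E6.5 Epi and Ptch1 had 3.28 to 8.16 CPM at E7.5 against 2.28 CPM in both Epi libraries (1.04 ± 0.53, adjusted p = 0.377).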

How the data were processed

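Values are whole-number read counts per gene, as deposited by the authors in 1 table of 10 cell libraries and 1 of 18 embryo libraries; 6 embryo columns matched no sample and were not used. Per the submitters' processing notes, CASAVA 1.8, TopHat2 2.0.9, BWA and mm10 were used, with no roles named; for the counting tool, annotation and strand setting the answer is the same: not given in the sources used here. Reads of overlapping or antisense genes may therefore be mixed. The members and gene lists were chosen with earlier results of these data known.

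Each table was fitted whole with edgeR 4.0.16 in R 4.3.3 (quasi-likelihood test, TMM scaling, robust fit, filterByExpr with a minimum count of 10 and a minimum total of 15), with Benjamini-Hochberg adjustment over all genes tested and a threshold of 0.05; it was tested on simulated data. Alternatives were DESeq2 1.42.0, other scalings and filters, fits of the compared groups alone, of the replicate block and without each library. By rule, each list described gives up to 4 called genes with the smallest p and up to 2 not called in list order, and each member tested in the cells its 3 nearest genes; any other gene named was chosen after its values were seen, and some genes under the rule are not reported here. Intervals and floors (3 counts over a group) cover counting error only. Replicate libraries differed by chi-square over degrees of freedom of 3.78 to 63.9 in cells and 40.4 to 135 in embryos. Gene places and promoter sequences are from RefSeq.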

Additional observations from a re-analysis of the deposited data

How the results depend on the processing

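Between D8 KO and D8 WT cells the count of members that passed the test was 0 in the fit reported and under DESeq2, other scalings and filters and the compared groups alone, but 2 with the replicate block (Nkx6-1, -2.36, edgeR adjusted p = 0.0108; Shh, -1.63, 0.0130). Leaving out 1 library gave 0 to 2 members. Same-numbered libraries deviated together with correlations of -0.04 to 0.17 in the cells and -0.10 to 0.56 in the embryos (0.36 to 0.56 among A, AM and P at E7.5, 0.32 between A and P at E7.0, and -0.10 to 0.22 in pairs with ExE). The labels tie no number to a shared embryo, litter or day. Each embryo group has only 2 libraries and each cell group 2 or 3, so the numbers were not taken to pair the samples. The tests between parts therefore leave out any pairing that these correlations may reflect. Among A, AM and P at E7.5 the replicate block called 0 members in each comparison. Over all genes it called 78 for P over A, 370 for AM over A and 28 for AM over P. Leaving out 1 library moved the D8 KO over WT log2 fold change from -2.07 to 0.095 for Shh, -2.87 to 0.19 for Nkx6-1, -0.66 to 0.41 for Nkx2-2 and -2.51 to 0.44 for Irx3, and that of Gli1 in E7.0 ExE from -0.31 to 3.24. Over all genes, 3039 were called at D8 in the fit reported, 705 with the compared groups alone and 777 to 5463 with 1 library left out; at D0, 40, 2033 and 3 to 15, and 444 with DESeq2, 25 with total counts, 70 with no filter and 6 with the replicate block. For the KO minus WT change 843 were called, 1780 with DESeq2 and 7 to 3591 with 1 library left out. For ExE the counts were 1286 at E6.5 (2066 with DESeq2, 3643 with the compared groups alone, 355 to 603 with 1 library left out), 2615 at E7.0 (1009 with the compared groups alone, 1245 to 4555) and 3073 at E7.5 (661 to 2921). Among the embryonic parts the counts were 1 for E7.0 P over A (0 to 71 under the alternatives), 34 for E7.5 P over A (0 to 391), 226 for AM over A (3 to 653), 16 for AM over P (0 to 189) and 379 for E7.5 over Epi (19 to 908). In the embryos, leaving out 1 library gave 0 to 1 members in E6.5 ExE over Epi, 0 to 2 in E7.0 ExE, 0 in E7.5 ExE and 0 to 1 in the comparison of E7.5 with Epi. For E7.0 ExE, DESeq2 called 2 members and the compared groups alone 0. With no filter on low counts 1 member passed in E7.5 P over A (Irx3) and 1 in AM over A (Shh), and for E7.5 over Epi 1 member (Irx3) passed with DESeq2, total counts, no filter, the replicate block and the compared groups alone. The compared groups alone are all groups of the table for the KO minus WT change, so that alternative gives the same fit. Scaling by total counts moved the median of all genes by up to 0.46 (E7.5 AM over P). The alternatives for the gene lists and pooled ratios were chosen after seeing the data. The cause of these changes was not tested. With 2 or 3 libraries a group, and 3 counts or fewer for 3 of the members over all embryo libraries, differences in those members were not detectable at this depth.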
